A study of Homo sapiens with 30 samples.

Results

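In wild-type human neural progenitor cells, 407 genomic regions carried a called peak of the ubiquitin ligase RNF2 in both replicate peak sets and no called peak of its paralog RING1 in either. They were chosen by merging the overlapping or touching peaks of 4 deposited peak lists on chromosomes 1 to 22, X and Y, which gave 19856 regions. RNF2 was called in both sets at 4240 of these, and the 407 regions without RING1 made up 9.6% of the 4240. The other 3833 regions held RING1 as well. The presence of peaks chose the regions, so the counts of regions with and without RING1 are a description and not a result.

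RNF2 (RING1B) and RING1 (RING1A) are the alternative catalytic subunits of Polycomb repressive complex 1 (PRC1), and each pairs with a PCGF protein to place a single ubiquitin on histone H2A (H2AK119ub1). Canonical PRC1 contains a CBX protein that reads the H3K27me3 mark of PRC2. Variant PRC1 contains RYBP or YAF2 and is recruited in other ways, among them the binding of KDM2B to unmethylated CpG islands. In neural progenitors PRC1 is known for holding developmental regulators of other lineages and of later stages silent.

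The cells came from the established embryonic stem cell line H9 and were differentiated into neural progenitor cells that were grown as a monolayer in N2/B27/FGF medium. CUT&RUN, in which a nuclease tethered to an antibody releases the DNA around the bound protein, was run with antibodies against RNF2 and RING1, with 2 libraries per antibody. Only the wild-type peak lists are used here. The series, which is built on RING1 and RNF2 alleles, spans 5 genotypes and 30 samples; the RING1ms/ms, RING1+/ms, RING1-/- and RNF2ms/ms cells and the H2AK119ub1 and IgG libraries were not analysed here. The lists came as pairs of 1 RNF2 and 1 RING1 list, called set A and set B, and the labels tie neither set to a replicate number or to a separate culture. The lists differ in length: 16263 (set A) and 5901 (set B) peaks for RNF2, 12891 (set A) and 659 (set B) for RING1. Since the sequencing depth is unknown, the lack of a peak does not show that the protein was absent.

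The RING1 list of set A alone decided which regions lacked RING1. Each of the 3833 regions with RING1 held a RING1 peak of set A, and 290 held one of set B too. Without the RING1 list of set B the count stayed at 407, and without that of set A it was 3941. Because width and enrichment bear on whether a peak is called, each region without RING1 was paired with 1 RING1-bearing region of similar width and similar RNF2 fold in both sets. All 407 paired regions, called matched regions from here on, held a set A RING1 peak and 0 held one of set B. Fold stands for the authors' fold enrichment of a peak over background, and where a region held several peaks of a list the highest was used.

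Regions were ranked by the smaller of the RNF2 folds of both sets, and the starts inside the leading regions differed in base composition. The 250 bases before the RefSeq transcript start are shown for the leading 6 regions with an entry in the promoter table, because these starts lie inside regions with RNF2 and no RING1. For contrast, the same stretch is shown for CMPK2 and LRRC3B, the starts with the lowest ratio of observed to expected CpG among those inside the 407 regions. Capitals mark each CG dinucleotide, and the sequences are from RefSeq on GRCh38.p14, written 5′ to 3′ on the strand of the gene.
NLGN1: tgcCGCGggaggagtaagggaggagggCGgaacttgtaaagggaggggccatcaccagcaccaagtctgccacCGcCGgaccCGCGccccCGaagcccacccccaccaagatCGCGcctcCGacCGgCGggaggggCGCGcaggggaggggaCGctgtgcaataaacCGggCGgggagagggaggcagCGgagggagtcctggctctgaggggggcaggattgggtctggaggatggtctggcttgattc
GRIPAP1: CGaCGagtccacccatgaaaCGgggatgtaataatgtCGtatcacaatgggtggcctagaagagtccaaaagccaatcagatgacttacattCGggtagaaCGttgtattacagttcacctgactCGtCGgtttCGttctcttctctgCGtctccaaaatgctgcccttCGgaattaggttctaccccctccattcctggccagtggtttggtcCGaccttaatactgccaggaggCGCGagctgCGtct
STON2: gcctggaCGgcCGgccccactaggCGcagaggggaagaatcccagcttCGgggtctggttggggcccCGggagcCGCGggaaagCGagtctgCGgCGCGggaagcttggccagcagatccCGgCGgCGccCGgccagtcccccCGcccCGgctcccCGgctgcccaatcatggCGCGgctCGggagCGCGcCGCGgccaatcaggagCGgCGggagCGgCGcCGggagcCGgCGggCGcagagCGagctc
CREG2: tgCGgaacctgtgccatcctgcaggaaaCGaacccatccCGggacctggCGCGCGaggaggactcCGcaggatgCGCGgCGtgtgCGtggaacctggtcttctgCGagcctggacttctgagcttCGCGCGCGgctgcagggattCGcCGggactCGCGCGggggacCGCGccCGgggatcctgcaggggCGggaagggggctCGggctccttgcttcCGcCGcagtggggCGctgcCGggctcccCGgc
TMEM108: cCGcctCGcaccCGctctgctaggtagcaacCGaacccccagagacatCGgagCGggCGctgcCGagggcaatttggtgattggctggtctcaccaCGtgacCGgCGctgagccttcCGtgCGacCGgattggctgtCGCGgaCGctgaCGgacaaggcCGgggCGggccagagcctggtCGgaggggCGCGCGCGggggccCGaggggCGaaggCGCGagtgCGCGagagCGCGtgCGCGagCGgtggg
KCNH1: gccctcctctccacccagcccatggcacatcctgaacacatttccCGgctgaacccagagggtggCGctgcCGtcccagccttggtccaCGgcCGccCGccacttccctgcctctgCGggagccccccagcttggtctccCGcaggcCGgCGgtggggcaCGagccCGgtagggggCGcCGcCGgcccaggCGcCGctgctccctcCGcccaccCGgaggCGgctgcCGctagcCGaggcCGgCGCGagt
CMPK2: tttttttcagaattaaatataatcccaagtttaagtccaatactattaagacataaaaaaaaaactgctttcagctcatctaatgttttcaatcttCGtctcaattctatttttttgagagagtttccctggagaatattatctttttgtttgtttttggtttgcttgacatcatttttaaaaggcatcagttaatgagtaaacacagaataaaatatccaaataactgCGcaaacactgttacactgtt
LRRC3B: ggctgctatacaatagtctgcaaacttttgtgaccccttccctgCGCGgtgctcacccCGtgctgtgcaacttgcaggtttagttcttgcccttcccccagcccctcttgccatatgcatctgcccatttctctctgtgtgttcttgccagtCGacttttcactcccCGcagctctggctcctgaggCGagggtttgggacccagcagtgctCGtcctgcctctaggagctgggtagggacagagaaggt

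These stretches lie at chr3:173395702-173395951 on the plus strand (NLGN1), chrX:49002265-49002514 on the minus strand (GRIPAP1), chr14:81436466-81436715 on the minus strand (STON2) and chr2:101387504-101387753 on the minus strand (CREG2). TMEM108 lies at chr3:133038141-133038390 on the plus strand, KCNH1 at chr1:211134149-211134398 on the minus strand, CMPK2 at chr2:6866636-6866885 on the minus strand and LRRC3B at chr3:26623450-26623699 on the plus strand. The stretch before TMEM108 held 36 CG dinucleotides, STON2 34, CREG2 31, KCNH1 25, NLGN1 19 and GRIPAP1 15. CMPK2, a mitochondrial nucleotide kinase, held 2 with a GC content of 28.4%, and LRRC3B held 7. Each is only 1 of several promoter entries of the gene that overlap its region. The other CMPK2 entries had observed-to-expected ratios of 0.984 and 0.888, against 0.25 for the entry shown, and the LRRC3B entries ran from 0.325 for the entry shown to 0.666.

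NLGN1 encodes neuroligin 1, a postsynaptic adhesion protein, and its region at chr3:173395108-173398194 led the ranking. Its RNF2 fold was 4.50 and 4.70 in sets A and B, and the nearest region with RING1 lay 186499 bp away. GRIPAP1, which takes part in the endosomal recycling of AMPA receptors, followed with a fold of 5.53 and 4.44 in sets A and B over only 547 bp of the X chromosome. STON2, an adaptor for the recycling of synaptic vesicles, had 4.49 and 4.43 in sets A and B. All of these values were above the medians of the 407 regions in both sets, which follows from the ranking by the smaller fold.

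CREG2, a secreted glycoprotein of the brain, had an RNF2 fold of 4.33 and 5.30 in sets A and B. TMEM108, a transmembrane protein, had 4.67 and 4.26 in sets A and B, and KCNH1, a voltage-gated potassium channel, had 4.71 and 4.22 in sets A and B. Set A was higher at TMEM108 and KCNH1 and set B at CREG2, so the order of the sets was not the same from region to region.

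Of the 25 leading regions, 17 lay at a protein-coding gene end, 3 inside a gene and 5 elsewhere. Among the gene ends were DNAJC3, a co-chaperone of the endoplasmic reticulum, with 4.16 and 4.40 in sets A and B, and a single region at INTS13, a subunit of the Integrator complex, and FGFR1OP2, with 4.15 and 5.30 in sets A and B. ELOVL7, a fatty acid elongase, had 4.72 and 4.07 in sets A and B. PTPRD, a receptor tyrosine phosphatase that organises synapses, had 4.05 and 4.61 in sets A and B and was the most isolated of the named regions, with 2161650 bp to the nearest RING1.

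The other named leading gene ends belonged to genes of varied function. They were those of FERMT3 (a blood-cell kindlin), TRPT1 and NUDT22 in 1 region, GDPD5, COL23A1 (a transmembrane collagen), GAS2L1 (a linker of actin and microtubules), NUP133 (a nuclear pore subunit), and CAPN14 and EHD3 in 1 region. Their folds ran from 4.0 at NUP133 to 4.73 at CAPN14 and EHD3 in set A, and from 3.95 at CAPN14 and EHD3 to 4.68 at FERMT3 in set B. Inside genes, ALOX12B, an epidermal lipoxygenase, had 4.97 and 4.17 in sets A and B, the winged-helix gene STOX2 had 4.02 and 4.45, and FBRSL1, a paralog of the variant PRC1 partner AUTS2, had 4.44 and 3.95. The STOX2 region was centred 878.5 bp downstream of an annotated STOX2 start that is not an outer end of the gene. The leading regions away from genes included chr17:20844006-20846351, with 4.22 and 4.97 in sets A and B and RING1 at 5153 bp, and chr2:132008771-132011317, with 4.15 and 4.29.

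The 5 widest regions without RING1 did not have the highest folds. USP44, a ubiquitin protease, had the widest at 5585 bp, with a fold of 3.33 and 3.98 in sets A and B. RICTOR, a subunit of the mTORC2 kinase complex, had 5262 bp with 3.54 and 3.98 in sets A and B. In both the wide peak was that of set B: at USP44 the RNF2 peak covered 1649 bp in set A and 5585 bp in set B, and at RICTOR 1693 bp in set A and 3925 bp in set B.

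TMEM132B had 5119 bp, all covered in set A, against 1718 bp covered in set B. A 5147 bp region inside SMARCA2, an ATPase of the SWI/SNF chromatin remodellers, had 4414 bp covered in set A and 3368 bp in set B. The region chr6:50698615-50703260, in no gene, had 4646 bp covered in set A and 333 bp in set B. The width of a region was thus often that of 1 set only.

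As a group the regions were narrow and their RNF2 enrichment lay near the low end. Median width was 1282 bp in regions without RING1 (range 369 to 5585 bp) and 2230 bp in all regions with RING1. Region width includes any RING1 peak, so RNF2 alone is given too. The set A RNF2 peak covered a median of 938 bp without RING1 and 1989 bp in all regions with RING1. In set B the medians were 678 bp without RING1 and 997 bp in all regions with RING1. The median RNF2 fold of set A was 3.81 in regions without RING1 (2.91 to 6.42) and 5.09 in all regions with RING1. In set B it was 3.59 (3.0 to 5.30) in regions without RING1 and 3.85 in all regions with RING1.

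The highest set A fold, 6.42, was at SHC3, a neuronal signalling adaptor chosen here after its value was seen; its fold in set B was 3.80. Significance was low as well. A −log10 q of at least 5 in both sets, reached by 9.53% of the 4240 regions, was reached by 0 of the 407 regions without RING1 (exact 95% upper limit 0.902%), by 0 of the matched regions and by 404 of all regions with RING1. In set A alone 11 regions without RING1 reached it, among them those of GRIPAP1, PSMA5, PSMC5 and RPS15, and in set B alone 3 did, among them CREG2 and INTS13. A lower bar of 2 in both sets was met by 92 regions without RING1 (22.6%), 112 matched regions (27.5%) and 2357 of all regions with RING1 (61.5%). All intervals given for shares are exact Clopper-Pearson 95% intervals; they cover counting over regions, not the spread between cultures, and treat regions as independent. Intervals of medians are binomial intervals on ranks and carry the same limits.

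The share of regions without RING1 declined along both width and set A fold. Of the 424 narrowest regions with RNF2 in both sets (361 to 966 bp), 31.1% lacked RING1, and of the 424 widest 0% did (upper limit 0.866%). In deciles of set A fold the share without RING1 was 37.7% in the lowest, 24.1% in the next, 7.08% in the fourth and 0% in the highest. The trend along set B fold was flatter, at 12% in the lowest decile, 17.2% in the next and 0.472% in the highest. RING1 was called mainly in set A, so set A fold and RING1 calls share a set, and the part of this in the trend was not tested.

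**Figure D1:**
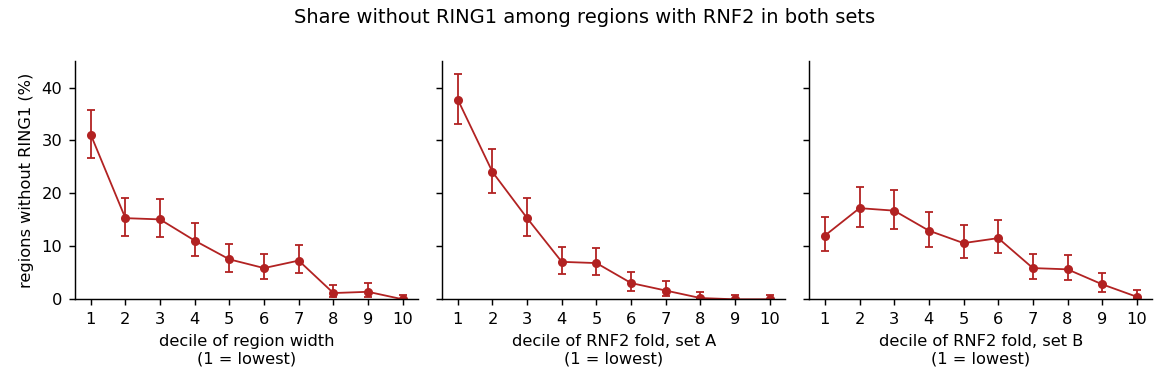
Share of regions without RING1 (%, vertical axis) in deciles of region width, RNF2 fold of set A and RNF2 fold of set B (horizontal axes, 1 = lowest), for 4240 regions with RNF2 in both sets. Points are shares and bars exact 95% intervals. The share is 31.1% in the narrowest decile and 37.7% in the lowest decile of set A fold, and 0% in the highest decile of either. Region width includes RING1 peaks, which can widen a region.

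Matching removed most of these differences by construction. Median width was 1282 bp in regions without RING1 and 1270 bp in matched regions. The median RNF2 fold of set A was 3.81 without RING1 and 3.83 in matched regions, and that of set B was 3.59 without RING1 and 3.60 in matched regions. The matched regions had a median RING1 fold of 3.86 in set A (3.02 to 7.40), below the 4.54 of all regions with RING1. Median −log10 q of that RING1 peak was 2.25 in matched regions and 3.42 in all regions with RING1. The RING1 calls of the matched regions were therefore themselves near the low end.

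**Figure D2:**
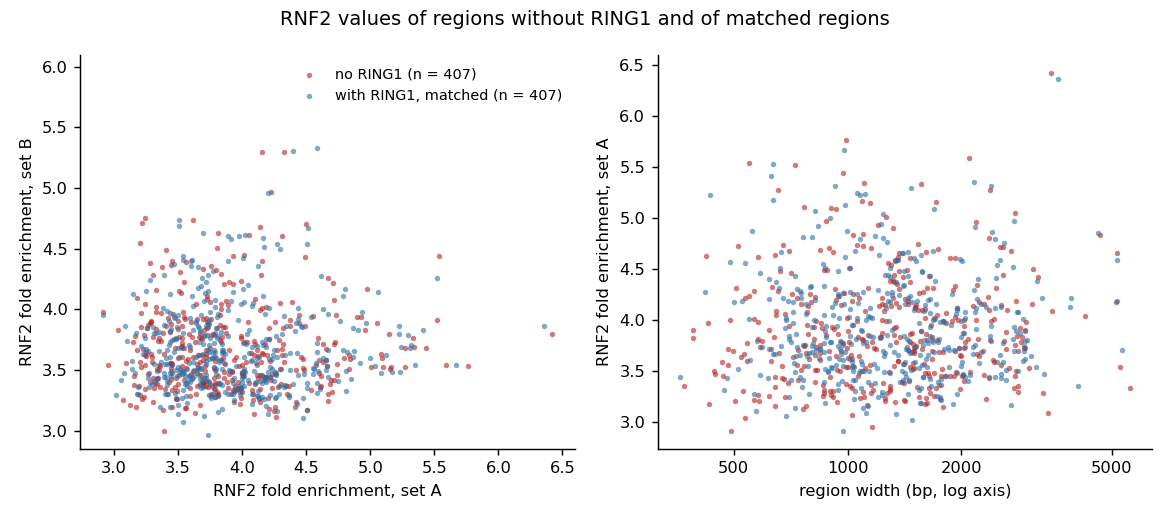
RNF2 fold enrichment of set B against set A (left), and of set A against region width in bp on a log axis (right), for 407 regions without RING1 (red) and 407 matched regions with RING1 (blue). Each point is 1 region; both groups cover the same range, with set A medians of 3.81 without RING1 and 3.83 in matched regions.

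Within a region, the RNF2 peaks of both sets coincided in part, and the intervals with and without RING1 overlapped. Of 407 regions, 404 held exactly 1 RNF2 peak per set, as did all 407 matched regions. The bases covered in both sets made up a median of 45.2% of those covered in either in regions without RING1 (interval of the median 41.6 to 47.8%), 45% in matched regions (43.5 to 47.7%) and 48.3% in all regions with RING1. A shared part of at least 50% was found in 165 regions without RING1 (40.5%), 178 matched regions (43.7%) and 1824 of all regions with RING1 (47.6%). Peak centres of the sets lay a median of 233 bp apart in regions without RING1 (interval 211.5 to 259 bp) and 197 bp in matched regions (164.5 to 224.5 bp).

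The sets differed in which peak was wider. The RNF2 peak of set A was the wider in 263 regions without RING1 (64.6%, interval 59.8 to 69.3%), in 325 matched regions (79.9%, 75.6 to 83.6%) and in 3345 of all regions with RING1 (87.3%). The RNF2 peak of set A had a median of 938 bp in regions without RING1 and 1032 bp in matched regions, and that of set B 678 bp in regions without RING1 and 589 bp in matched regions. The matching used the width of the merged region and not of each peak, and RING1 peaks can extend a merged region.

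Most regions without RING1 lay at genes, and the share at a gene end was lower than in matched regions, with intervals that overlapped narrowly. A protein-coding gene end within 2 kb, which 79.8% of the 4240 regions had, was found for 292 regions without RING1 (71.7%, interval 67.1 to 76.1%), 323 matched regions (79.4%, 75.1 to 83.2%) and 3093 of all regions with RING1 (80.7%). The difference to matched regions was -7.62 percentage points, and it lay between -14.1 and -5.54 points under 11 other settings. The value of -14.1 came from the regions whose RNF2 peaks reached a −log10 q of at least 2 in both sets. Among all 19856 merged regions the share was 54.6%. No test was run, because regions of the same libraries are not replicates and matched regions were picked by value.

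Elsewhere, neither in nor near a protein-coding gene, lay 57 regions without RING1 (14.0%, interval 10.8 to 17.8%), 32 matched regions (7.86%, 5.44 to 10.9%) and 338 of all regions with RING1 (8.82%). Inside a gene and away from its ends lay 58 regions without RING1 (14.3%), 52 matched regions (12.8%) and 402 of all regions with RING1 (10.5%). Ends of 2 or more genes were near 51 regions without RING1 (12.5%, 9.47 to 16.1%), 83 matched regions (20.4%, 16.6 to 24.6%) and 792 of all regions with RING1 (20.7%). WNT6 with WNT10A and INTS13 with FGFR1OP2 were such gene pairs among the regions without RING1.

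**Figure D3:**
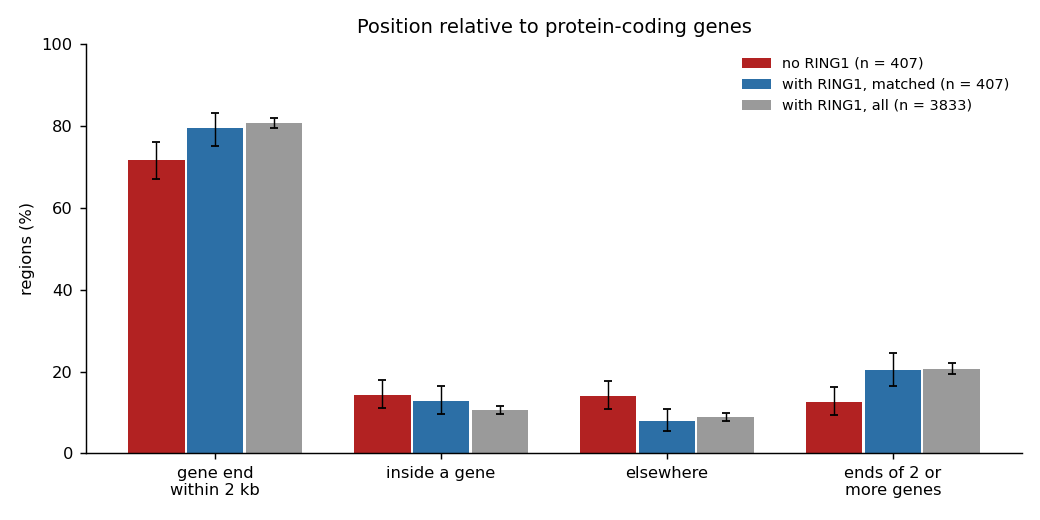
Share of regions (%, vertical axis) with a protein-coding gene end within 2 kb, inside a gene, elsewhere, and with ends of 2 or more genes, for regions without RING1 (red, n = 407), matched regions (blue, n = 407) and all regions with RING1 (grey, n = 3833). Bars start at 0 and lines are exact 95% intervals; elsewhere holds 14.0% of the red, 7.86% of the blue and 8.82% of the grey regions.

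Where strand was known, from the promoter table, most regions covered a transcript start. The table as used leaves out chromosome 8 and has entries for 15843 of the 20037 protein-coding genes. Starts without an entry were not counted, so the shares are lower bounds. A start was covered by 226 of 393 regions without RING1 (57.5%, interval 52.5 to 62.4%), 262 of 389 matched regions (67.4%, 62.4 to 72.0%) and 2540 of 3670 of all regions with RING1 (69.2%). Among all merged regions the share was 41.5%. The centre lay within 2 kb of a start in 258 regions without RING1 and 284 matched regions. It was a median of 102.5 bp downstream of the start in regions without RING1, 51.5 bp in matched regions and 18.3 bp in all regions with RING1. Downstream centres numbered 160 (62.0%) without RING1 and 163 (57.4%) in matched regions.

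Promoters at these regions were CpG-rich, and the intervals without RING1 and in matched regions overlapped. The promoter table gives 300 bases per entry, 250 before to 50 after a start. Entries overlapping a region without RING1 by at least 1 bp numbered 327, of 266 genes, against 367 entries of 311 genes for matched regions. The start itself need not lie inside the region. The ratio of observed to expected CpG had a median of 0.855 without RING1, 0.859 in matched regions, 0.855 in all regions with RING1 and 0.737 over all 22199 entries. A ratio of at least 0.6 was held by 299 entries without RING1 (91.4%, interval 87.9 to 94.2%), 341 in matched regions (92.9%, 89.8 to 95.3%) and 13804 of all entries (62.2%). Median GC content was 69.0% without RING1, 67.0% in matched regions and 62.3% over all entries.

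**Figure D4:**
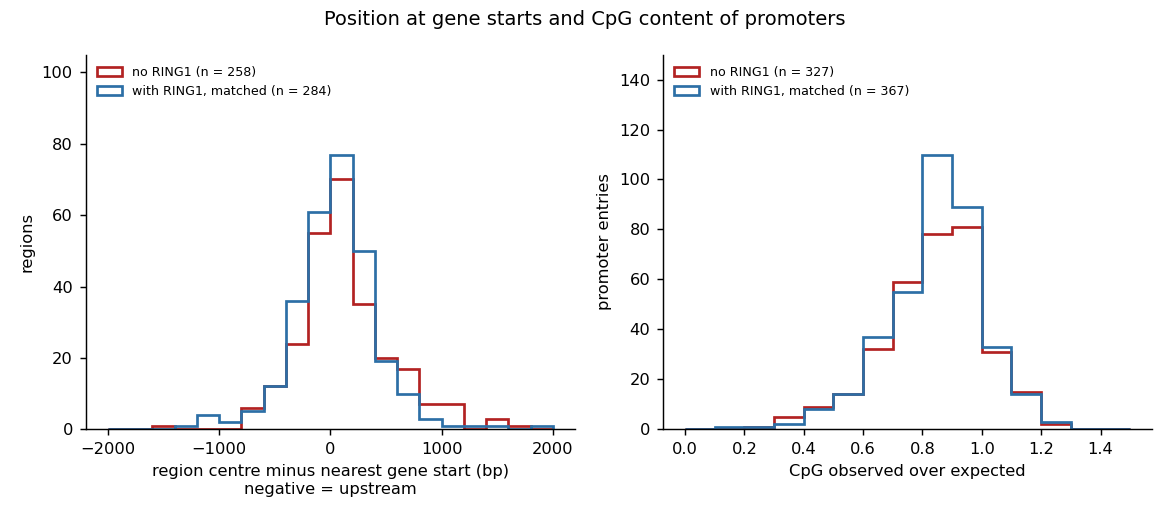
Left, number of regions (vertical axis) by distance of the region centre from the nearest gene start in bp (negative = upstream); right, number of promoter entries by ratio of observed to expected CpG. Red is regions without RING1 (258 regions, 327 entries) and blue matched regions (284 regions, 367 entries); median distances are 102.5 bp (red) and 51.5 bp (blue) and median ratios 0.855 (red) and 0.859 (blue).

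Of 11 motifs searched on both strands, the SP/KLF box GGGCGG was the most frequent. It was found in 78.0% of the 327 entries without RING1, 77.9% of the 367 matched entries and 56.3% of all entries. The NF-Y box CCAAT was found in 31.8% of entries without RING1 (interval 26.8 to 37.2%), 37.9% of matched entries (32.9 to 43.1%) and 34.7% of all entries. The ETS motif CCGGAAG was found in 15.3% of entries without RING1, 17.4% of matched entries and 12.8% of all entries. TATAAA was found in 5.81% of entries without RING1, 3.54% of matched entries and 9.47% of all entries.

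The E-box CACGTG was found in 6.73% of entries without RING1 (interval 4.26 to 10%), 7.36% of matched entries, 11% of entries at all regions with RING1 and 8.34% of all entries. Its longer form TCACGTGA, which contains CACGTG, was found in 2 entries without RING1 (0.612%), 2 matched entries and 1.27% of all entries. The palindromic NRF1 motif was found in 8 entries without RING1 (2.45%), 8 matched entries and 1.5% of all entries, and the YY1 motif in 4 entries without RING1 (1.22%), 5 matched entries and 1.18% of all entries. The E2F motif TTCCCGCC was found in 5.20% of entries without RING1 and 5.99% of matched entries, against 3.98% of all entries. The CRE TGACGTCA was found in 2.75% of entries without RING1, 1.63% of matched entries and 2.26% of all entries, and AGGTCA in 9.79% of entries without RING1, 8.72% of matched entries and 11.9% of all entries. A match to these letters is a description of the sequence and not of a bound factor.

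The next RING1 region was a long way off for most regions without RING1. The median distance to another region with RING1 was 62780 bp for regions without RING1 (interval 49380 to 77196 bp), 39470 bp for matched regions (31640 to 48551 bp) and 29166 bp for all regions with RING1. This order rests on the RING1 list of set A: with RING1 of set B only, the median was 2922841 bp for regions without RING1 and 2947138 bp for matched regions. Another region with RNF2 in both sets lay at a median of 167954 bp from regions without RING1, 96235 bp from matched regions and 92885 bp from all regions with RING1. The nearest region called in all 4 lists was at a median of 3729513 bp from regions without RING1 and 3822620 bp from matched regions.

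The distances had a short tail too. Another region with RING1 lay within 1 kb of 21 regions without RING1 and of 7 matched regions, and within 5 kb of 46 regions without RING1 and of 47 matched regions. Regions in no gene and at no gene end had the lowest median, 29771 bp over 57 regions (interval 15612 to 56222 bp). The 292 at gene ends had 71824 bp (51717 to 86788 bp). These intervals overlapped, and matched regions were not split by place.

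At the border of the rule, the nearest RING1 peaks lay a few bases outside a region. The region chr18:74456188-74457062 had RING1 at 3 bp, the region of CA4, a carbonic anhydrase, at 22 bp, that of CTTNBP2, a cortactin-binding protein of dendritic spines, at 43 bp, that of HS3ST5, a heparan sulphate sulphotransferase, at 65 bp and that of ARSB, a lysosomal sulphatase, at 74 bp. Just outside the rule, RING1 overlapped the RNF2 peaks by 13 bp at PIK3CA, at PAQR9 and at chr1:156688983-156691017, by 30 bp at chr9:214724-216058 and by 36 bp at INO80. CA4 had an RNF2 fold of 3.25 and 3.85 in sets A and B, and PIK3CA had 3.33 and 3.81 in sets A and B. With a RING1-free margin of 5 kb the count was 361 in place of 407.

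Across chromosomes, the X held the highest share of regions without RING1 and chromosome 19 the lowest. On the X 16 of 82 regions with RNF2 in both sets lacked RING1 (19.5%, interval 11.6 to 29.7%), and on chromosome 19 13 of 328 did (3.96%, 2.13 to 6.68%). Of the matched regions, 9 lay on the X and 29 on chromosome 19. The chromosome 19 regions included RPS15, ZNF555, ZNF333, ZNF550, ZNF525 and KCNA7, and those on the X included GRIPAP1.

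At the gene level, 343 protein-coding genes had an end within 2 kb of a region without RING1, 1.71% of the 20037 annotated. An end was either outer bound of a gene, so a counted gene need not have its start at the region. For matched regions the number was 412 (2.06%), and for all regions with RING1 it was 3875, 19.3% of the annotated genes. Of the 343 genes, 57 (16.6%) had a separate region with RING1 at an end. This share was not above the 19.3% of all annotated genes, so it marks nothing particular to these genes. Counts over 25 gene lists are given beside these shares, with no test.

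Developmental transcription factor genes, the classic PRC1 targets, gave counts of 0 or 1, beside the 1.71% of all genes. None of 141 homeobox genes had such a region, and none had a matched region, while 121 (85.8%) had a region with RING1. Of 80 forkhead, SOX and T-box genes 1 had a region without RING1, 1 a matched region and 50 a region with RING1. The member without RING1 was SOX18, a factor of blood and lymph vessels, with an RNF2 fold of 3.56 and 4.39 in sets A and B. Protocadherin, neural progenitor, pluripotency and olfactory receptor genes had 0 regions without RING1 and 0 matched regions, while a region with RING1 was found for 31 of 66 protocadherin, 19 of 31 neural progenitor, 4 of 19 pluripotency and 1 of 392 olfactory receptor genes. The matched regions were as empty of these genes as the regions without RING1.

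Neuronal, potassium channel and receptor genes had counts of 2 to 5, beside the 1.71% of all genes. Lists of other kinds had similar shares: proteasome genes 6%, collagen genes 6.82% and WNT and Frizzled genes 6.90%. NLGN1 and NEUROD6, a bHLH factor of differentiating neurons, were the 2 of 30 neuronal genes with a region without RING1; 0 had a matched region and 15 a region with RING1. NEUROD6 had an RNF2 fold of 3.67 and 3.80 in sets A and B. Potassium channel genes numbered 5 of 96 without RING1 (5.21%) and 2 at matched regions (2.08%), led by KCNH1 and followed by KCNS3 (3.72 in set A, 4.11 in set B), KCNH4 (3.5, 3.59) and KCNA7 (4.01, 3.45). Of 47 glutamate and GABA receptor genes, the NMDA receptor genes GRIN2C and GRIN1 had a region without RING1, and 4 genes had a matched region. GRIN2C, GRIN1, KCNS3 and KCNH4 also had RING1 at another region of the gene. The region counted for KCNH4 was also that of RAB5C, with its centre 324.5 bp downstream of the RAB5C start.

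Signalling and transport genes were present in small numbers. WNT6 and WNT10A, neighbouring genes for secreted ligands, shared 1 region without RING1 with a fold of 3.43 and 3.40 in sets A and B, and both had RING1 at another region. Of 351 solute carrier genes 8 had a region without RING1 and 15 a matched region; SLC2A1, the glucose transporter GLUT1, had 3.87 and 3.81 in sets A and B. SLC27A4, a fatty acid transporter, had 3.45 and 4.37 in sets A and B. Both also had RING1 at another region, and for SLC27A4 a matched region with RING1 lay at its start. Collagen genes numbered 3 of 44 without RING1 (COL23A1, COL8A1 and COL27A1) and 2 at matched regions.

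Counts of housekeeping genes were small throughout. PSMA5, PSMC5 and PSMD14 were the 3 of 50 proteasome genes with a region without RING1 (6%), and 1 had a matched region. PSMA5, a subunit of the proteasome core, had a fold of 5.14 and 3.80 in sets A and B. ATP5MK, COX4I1 and NDUFB8 were the 3 of 91 respiratory chain genes, and 1 had a matched region.

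Of 86 cytosolic ribosomal protein genes, 1 had a region without RING1 (1.16%, near the 1.71% of all genes) and 9 had a matched region (10.5%, against 2.06% of all genes). The single member, RPS15, had a fold of 4.69 and 3.42 in sets A and B. Mitochondrial ribosomal proteins numbered 0 of 77 without RING1 and 2 at matched regions. Spliceosome genes numbered 0 of 45 without RING1 and 1 at matched regions, and aminoacyl-tRNA synthetases 0 of 34 without RING1 and 1 at matched regions. The translation factor EIF4A2 was the member of its list of 70, and 1 gene of that list had a matched region. ZNF genes numbered 9 of 517 without RING1 (1.74%) and 11 at matched regions (2.13%), led by ZNF555 (3.93 in set A, 4.21 in set B), ZNF804A, ZNF333 and ZNF550.

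Genome maintenance and chromatin lists had 1 or 2 members each. PARP1, which senses DNA strand breaks, had an RNF2 fold of 4.29 and 3.75 in sets A and B, and FANCI, a Fanconi anaemia protein of crosslink repair, had 3.21 and 3.52 in sets A and B. They were the 2 of 50 repair genes without RING1; 0 had a matched region and 4 a region with RING1. HDAC2, a histone deacetylase, was the member of the list of 46 PRC1 and PRC2 genes, with 3.97 and 3.35 in sets A and B, against 0 at matched regions and 16 at regions with RING1. PLK1, a mitotic kinase, was 1 of 41 cell cycle genes, against 3 at matched regions. H4C11 was 1 of 69 histone genes, against 2 at matched regions, and TDRD1, a germline Tudor protein, 1 of 40 germline genes, against 0 at matched regions. The region counted for TDRD1 was also that of CCDC186, with its centre at -234 bp from the CCDC186 start (negative = upstream).

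**Figure D5:**
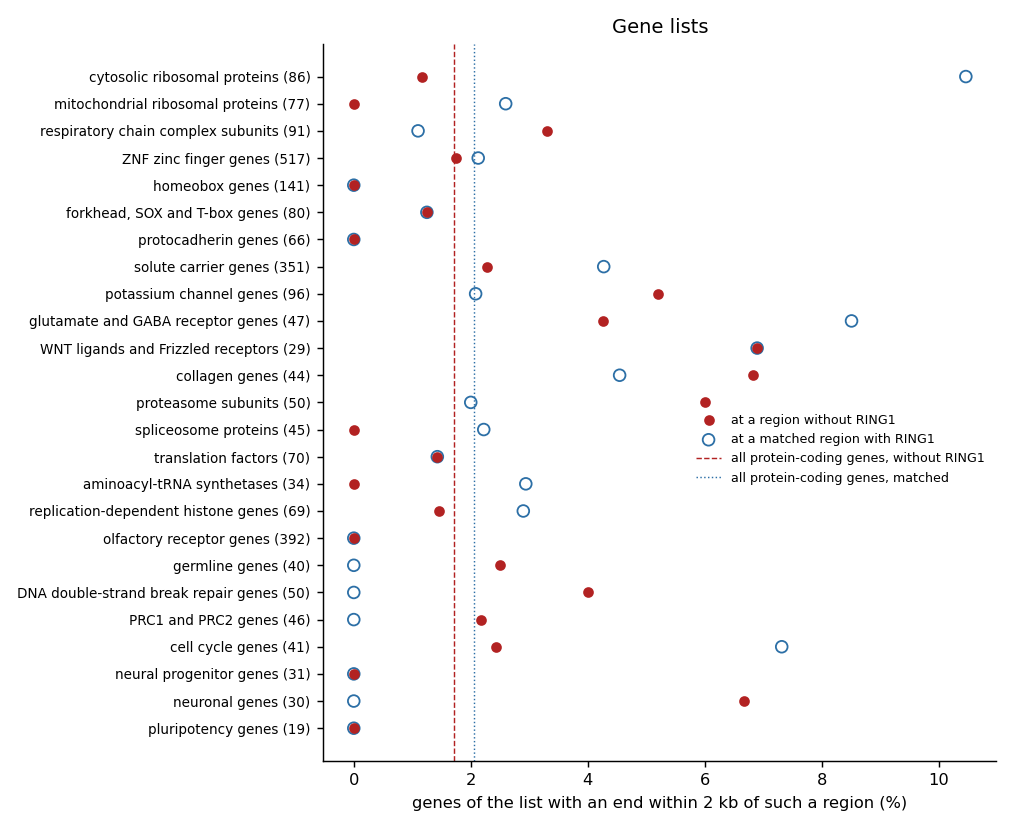
Share of each gene list (%, horizontal axis; number of genes in brackets) with an end within 2 kb of a region without RING1 (red) or of a matched region with RING1 (open blue). Vertical lines are the shares over all protein-coding genes, 1.71% (red) and 2.06% (blue); cytosolic ribosomal proteins stand at 1.16% (red) and 10.5% (blue), potassium channels at 5.21% (red) and 2.08% (blue), and homeobox genes at 0% for both.

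Non-coding genes lay near some regions without a protein-coding gene end. An end of a lncRNA gene was within 2 kb of 104 regions without RING1 (25.6%), 95 matched regions (23.3%) and 1162 of all regions with RING1 (30.3%), but of only 20 of the 115 regions without RING1 that had no protein-coding end. tRNA genes were near 8 regions without RING1, 6 matched regions and 57 of all regions with RING1. Of the 8, 7 had no protein-coding end and 5 lay on chromosome 1 or 6. The region chr1:161439326-161440885, with 3 tRNA genes, had a fold of 5.33 and 3.76 in sets A and B. miRNA genes were near 8 regions without RING1, 6 matched regions and 110 of all regions with RING1; the 8 included MIR152, MIR618, MIR1307 and MIR2110, chosen after their values were seen.

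The authors' consolidated region file, which the rule did not use, held nearly all of the regions. The file lists 4255 regions, and each has the end of a merged region and a start 1 base lower. Its regions thus correspond to regions merged from the same 4 lists, and the file is not independent support for them. Of the regions without RING1 it held 406 of 407, and of all regions with RNF2 in both sets 4239 of 4240. The missing one was chr1:880314-881778, with a fold of 3.86 in both sets. The 16 remaining regions of the file had RING1 in both sets.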

How the data were processed

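The authors deposited 1 broad peak list per antibody and set, taken here as called per library from the peak names; per the submitters' processing notes, MACS2 2.2.9.1, deepTools 3.5.2, bedtools 2.30.0, Picard 2.8.1, SAMtools 1.9 and BWA 0.7.17 were used on hg38, with no roles given. The deposited fold per peak is the authors' ratio over background, and the deposited −log10 q has its lowest values just above 1. The deposited score and −log10 p columns were not used. The control and the making of the consolidated file, which holds coordinates only, are not given in the sources used here.

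Overlap meant at least 1 bp. Matching took the assignment with the smallest summed distance in log10 width and log2 RNF2 fold of both sets, each divided by its SD (median pair distance 0.108 SD, largest 0.805). Gene ends are the outer bounds of 20037 RefSeq protein-coding genes, so a region at an internal start can count as inside a gene. Names and starts are from RefSeq (GRCh38.p14, which hg38 corresponds to). Genes named are the 25 leading regions, the 5 widest, 5 on either side of the rule and up to 4 members per gene list, ranked by the smaller RNF2 fold; exceptions are stated and regions on chromosome 8 and a few other genes are not reported here. All members of the 25 gene lists matched a gene of the annotation, except 1 neural progenitor and 1 pluripotency gene. The regions, lists and measures were chosen with earlier results of these data known. Merging, the choice of regions without RING1 and matching were tested on simulated data. The gene, promoter, motif and distance steps were not. SciPy 1.17.1, pandas 2.3.3, numpy 2.4.6 and matplotlib 3.10.9 were used under Python 3.11.15.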

Additional observations from a re-analysis of the deposited data

How the results depend on the processing

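Of 63 values recomputed under other settings, 53 stayed close to the reported ones. Only the 11 differences in gene-end share could change sign, and 0 did. The gene-end share without RING1 could not move where only the matching changed, so those values were close by construction. Direct overlap of the RNF2 peaks gave the same count, median width and median folds, as these peaks shared bases in all 407 regions. Each region with RING1 held a set A RING1 peak, and leaving out RING1 of set B left the count at 407. Such values add little to the 53. Close meant within 1.5 times for the number of regions, no farther off than the interval of the share without RING1 reaches, for the difference in gene-end share, and within the 95% interval of the reported value for the rest. The number of regions without RING1 depended most on the lists: it was 59 with all peaks limited to a −log10 q of at least 5, 0 with only the RNF2 peaks so limited, and 407 to 6278 when 1 peak list was left out (1862 without RNF2 of set A, 6278 without RNF2 of set B, 3941 without RING1 of set A, 407 without RING1 of set B). It was 433 with peaks within 1 kb merged. A −log10 q limit of 2 gave 299. With a window of 0 kb the share at a gene end was 59.0% without RING1 and 68.8% in matched regions. The difference was -14.1 points where RNF2 reached a −log10 q of at least 2 in both sets. With RING1 of set B only, the median distance to RING1 was 2922841 bp without RING1 and 2947138 bp in matched regions. The cause was not tested. Leaving out the X (gene-end shares) and using the nearest promoter entry per gene were chosen after seeing the data. No paired analysis was possible because the labels tie no peak list to a replicate number and no result comes from a test. Unknown read depth and the 659 peaks of the set B RING1 list limit what a missing RING1 peak can show.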
